A study of Homo sapiens with 2 samples.

Results

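MicroRNA-138 (miR-138) is made from 2 hairpin genes that share their main arm, miR-138-5p, and differ in the opposite arm, which is miR-138-1-3p for MIR138-1 and miR-138-2-3p for MIR138-2. The members were the probes whose name carries hsa-miR-138, that is hsa-miR-138-5p, hsa-miR-138-1-3p and hsa-miR-138-2-3p, 3 of 1273 human miRNA probes and 2661 probes with values in all. The miRNA was chosen by its normalized intensities and their ratio between the arrays, because its arms differed in them, so these levels and ratios are a description and carry no test. The data came from H460 cells, a human non-small cell lung cancer line grown in DMEM with fetal bovine serum, given sulforaphane, an isothiocyanate of cruciferous vegetables, or vehicle for 48 hours. The total RNA carried the Hy3 dye, the second dye was left unused, and the arrays were of the miRCURY type, on which locked nucleic acids in the probes raise the affinity for short RNAs. There was 1 array for sulforaphane and 1 for vehicle, so no spread between samples can be estimated and no difference between the conditions has a p-value. The sulforaphane dose is not stated in the labels used here.

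A miRNA hairpin is cut by Drosha and Dicer into a short duplex, and usually 1 strand, the guide, is loaded into Argonaute and kept, while the other, the passenger, is mostly lost. The seed near the 5′ end of the loaded strand pairs with target mRNAs. miR-138-5p is enriched in brain, where in rat neurons it restrains dendritic spine growth by repressing the depalmitoylating enzyme APT1, and in human carcinoma cells it is known as a repressor of the histone methyltransferase EZH2 and of the hypoxia factor HIF1A. In mouse, the precursor of the second locus is found in many tissues in which little mature miR-138 is seen.

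The mature sequences are shown because the arms differ in how much sequence they share, which bears on what each probe can tell apart. They are RefSeq sequences of the GRCh38.p14 table, 5′ to 3′, with the seed, bases 2 to 8, in capitals, and all 3 arms were matched by name. The sequences of the array's probes were not used here, and each probe is taken to match the arm it is named for.
miR-138-5p: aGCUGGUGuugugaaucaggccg
miR-138-1-3p: gCUACUUCacaacaccagggcc
miR-138-2-3p: gCUAUUUCacgacaccaggguu

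miR-138-5p is 23 bases long and identical in both loci, so its probe cannot tell the loci apart. The 3p arms are 22 bases long and identical at 18 positions. Counted from 1 at the 5′ end, with miR-138-1-3p first and miR-138-2-3p second, they differ by C5U, A11G, C21U and C22U, of which C5U lies in the seed. The 3 arms thus have 3 different seeds. Of 1252 human probes with a single name, 996 matched a mature sequence in the table, and none of these other miRNAs shared a seed with a miR-138 arm. GC bases number 13 of 23 in miR-138-5p, 13 of 22 in miR-138-1-3p and 11 of 22 in miR-138-2-3p.

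The hairpins show where the arms sit, here in capitals, with the rest in lower case.
MIR138-1: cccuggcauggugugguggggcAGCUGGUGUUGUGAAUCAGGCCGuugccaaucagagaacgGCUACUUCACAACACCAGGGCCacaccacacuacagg
MIR138-2: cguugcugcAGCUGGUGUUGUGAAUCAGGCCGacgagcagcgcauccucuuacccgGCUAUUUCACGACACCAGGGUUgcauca

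MIR138-1 is 99 bases long and lies at chr3:44114212-44114310 on the plus strand, within the span of the long non-coding RNA gene LOC124909489 and between the protein-coding genes ABHD5 and TOPAZ1. MIR138-2 is 84 bases long and lies at chr16:56858518-56858601 on the plus strand. No other gene of the RefSeq table overlaps it, and its protein-coding neighbours are NUP93 and SLC12A3. The stretch between the arms is 17 bases in MIR138-1 and 24 bases in MIR138-2. The deposited files give no coordinates, so these positions come from RefSeq alone.

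All values below are the authors' normalized intensities unless said otherwise, that is, foreground minus background divided by 1 factor per array. A probe was taken as detected when it exceeded the 95th percentile of 143 viral miRNA probes on the same array, a normalized floor of 5.52 with sulforaphane and 6.44 with vehicle. By this floor, 2 of the 3 arms were detected with sulforaphane and 3 of 3 with vehicle. At the stricter 99th percentile of the viral probes (23.2 with sulforaphane and 20.6 with vehicle), 0 of the arms were detected on either array. With vehicle, miR-138-1-3p missed that floor by little, at 20.0. The share of all human miRNA probes above that floor is not given here, so the 0 says nothing particular about the arms. Every statement on detection thus rests on the floor chosen. Over all 1273 human miRNA probes, 212 (16.7%) were above the floor with sulforaphane and 182 (14.3%) with vehicle, while 168 (13.2%) were above it on both arrays, 44 (3.46%) with sulforaphane alone and 1047 (82.2%) on neither. The miRNAs just above and just below the floor with sulforaphane read 5.52 (miR-128) and 5.48 (miR-3149), and those with vehicle read 6.44 (miR-331-3p) and 6.24 (miR-30d-5p).

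miR-138-5p, the guide arm that both loci contribute to, read 10.8 with sulforaphane, against 9.75 with vehicle. Its foreground intensity was 1395 over a local background of 59 with sulforaphane, against 1130.5 over 43 with vehicle. The arm was detected on both arrays and slightly brighter with sulforaphane, with a log2 ratio of 0.14 (1.10-fold in the authors' deposited table). The probe lay 1.95 times above the floor with sulforaphane and 1.52 times above it with vehicle, so it was a dim probe on each.

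miR-138-1-3p, the opposite arm of the first locus, read 15.7 with sulforaphane, against 20.0 with vehicle. Its foreground was 1999.5 over a background of 58.5 with sulforaphane, against 2271 over 38.5 with vehicle. It was detected on both arrays and dimmer with sulforaphane, with a log2 ratio of -0.36, or a vehicle signal 1.28 times that with sulforaphane.

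miR-138-2-3p, the opposite arm of the second locus, read 2.59 with sulforaphane, against 14.7 with vehicle. Its foreground was 373.5 over a background of 52.5 with sulforaphane, against 1678 over 38.5 with vehicle. It was thus 2.28 times above the floor with vehicle and 0.469 times the floor with sulforaphane, where 21 of the 143 viral probes (14.7%) were brighter. On the vehicle array 3 viral probes were brighter. Because the sulforaphane value is under the floor, the fold is a bound. With sulforaphane the arm was lower by at least 2.67-fold, a log2 ratio of -1.41 or lower. In bulk RNA, fewer cells carrying a miRNA and less of it per cell cannot be told apart. The authors' deposited table gives a fold change of 0.176 for it, which rests on the value under the floor.

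**Figure D1:**
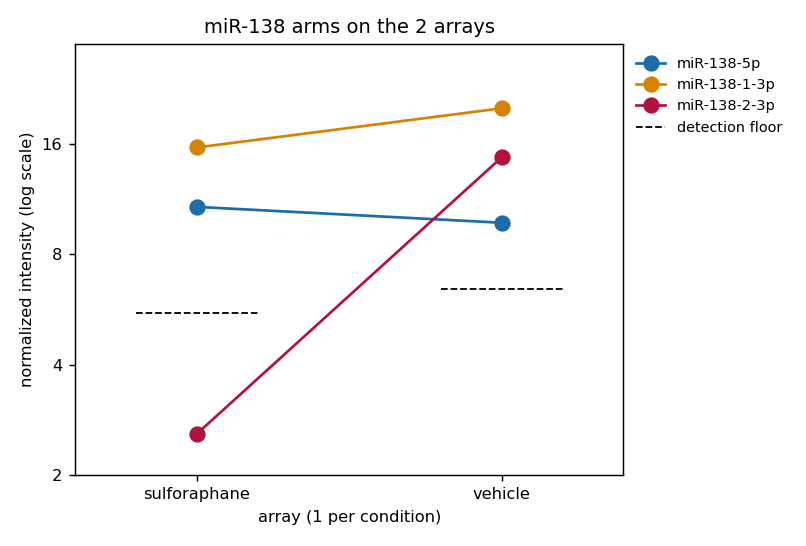
Normalized intensity (log axis) of the 3 miR-138 arms on the sulforaphane array and the vehicle array, 1 array per condition and so without error bars, with the detection floor of each array as a dashed line. miR-138-2-3p sits at 2.59 with sulforaphane, under the floor, and at 14.7 with vehicle, while the other arms are above both floors.

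The local background around these spots was set beside that of the arrays. The 3 backgrounds of 52.5 to 59 units with sulforaphane lie under the array's median of 61. That of miR-138-2-3p, 52.5 units, was higher than at only 3.01% of all probes, so it was among the lowest on that array. With vehicle the backgrounds were 38.5, 38.5 and 43 units, against a median of 41. With the foreground used unsubtracted, the log2 ratios were 0.15 for miR-138-5p, -0.34 for miR-138-1-3p and at most -1.33 for miR-138-2-3p. The files hold 1 value per probe and array, so the spread between spots was not tested.

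Among the 168 human miRNAs above both floors, the median log2 ratio was 0.38, with quartiles of 0.12 and 0.54, so a ratio of 0 is not the centre of the profile. miR-138-5p lay 0.24 below that median (-0.24), above 45 of the 168. miR-138-1-3p lay 0.74 below it (-0.74), with 8 of the 168 lower. A ratio below 0 was had by 29 of the 168 (17.3%). A difference of at least 2-fold was had by 6 (3.57%) upward and 2 (1.19%) downward, and neither of the 2 detected miR-138 arms was among them.

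miR-138-2-3p falls outside those counts because it was detected with vehicle alone, as were 14 human miRNAs (1.1%) in all. Among the 14, the bound was at least 2-fold for 2 (14.3%), and the other was miR-377-3p (2.15 with sulforaphane and 12.7 with vehicle, at least 2.30-fold lower). The next was miR-129-1-3p, at least 1.70-fold lower. Counting bounds and measured ratios together, 4 of the 182 miRNAs above the vehicle floor (2.2%) were at least 2-fold lower. The bound of miR-138-2-3p ranked first among the 14, and this was known when the miRNA was chosen.

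**Figure D2:**
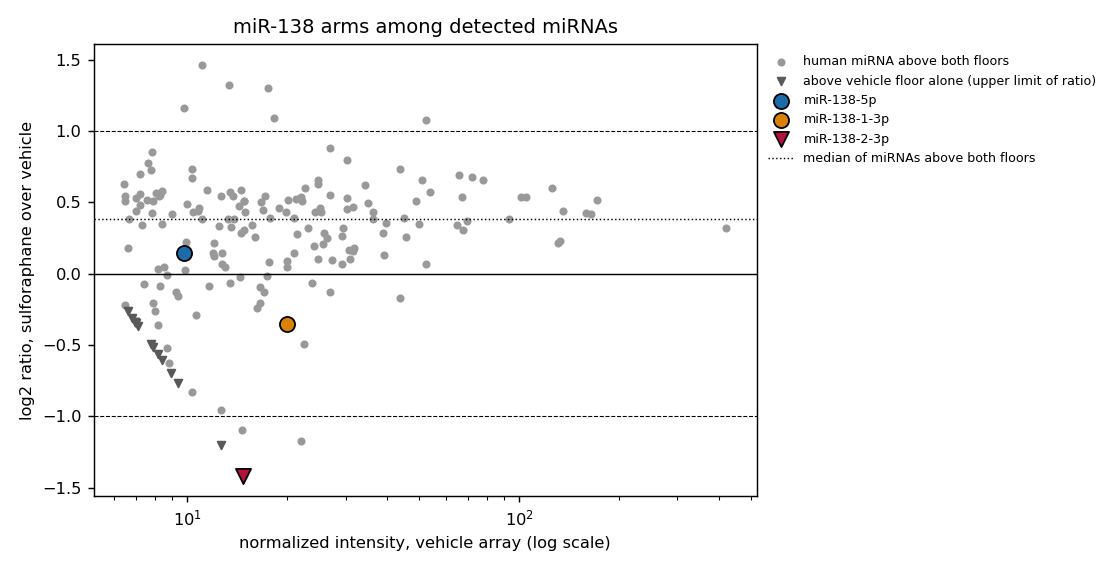
Log2 ratio of sulforaphane over vehicle against the normalized intensity on the vehicle array (log axis) for human miRNAs, with grey points for the 168 above both floors and triangles for the upper limits of the 14 above the vehicle floor alone. The dotted line is the median of 0.38, the dashed lines mark 2-fold, and the coloured symbols show miR-138-5p at 0.14, miR-138-1-3p at -0.36 and miR-138-2-3p at its limit of -1.41.

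The scatter of other probes at like intensity gives a scale for these values, although variation between cultures is not part of it. Of the miRNAs above both floors, 89 had a mean log2 intensity within 1 unit of miR-138-5p. Their log2 ratios had a median of 0.34 ± 0.45 (SD between probes), and 34 of them were lower than miR-138-5p. For miR-138-1-3p there were 104 such miRNAs, with a median of 0.38 ± 0.41 (SD between probes), and 4 of them were lower. The distance from that median was 0.447 SD for miR-138-5p (-0.447) and 1.80 SD for miR-138-1-3p (-1.80). The 41 detected spike-in probes, synthetic RNAs that carry no information on the cells, had an SD of 0.20 around a median log2 ratio of 0.68.

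For miR-138-2-3p the comparable scale is the fate of probes that were about as bright with vehicle. Of 117 other human miRNA probes within 1 log2 unit of its vehicle intensity, 7 (5.98%) were at or under the floor with sulforaphane, and 3 of these read no higher than miR-138-2-3p did. The 117 had a median of 16.4 with sulforaphane. Of 123 unnamed probes in the same window, 8 (6.50%) were at or under the sulforaphane floor, and 2 read no higher than miR-138-2-3p. Such a drop was thus not limited to named miRNAs. Of the 4 viral probes in the window, 0 were under it.

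The arms of miR-138 can be compared with each other through their ratios, since a factor common to an array cancels in the difference of 2 log2 ratios. Their intensities cannot, because probes differ in affinity. The ratio of miR-138-1-3p was 0.50 below that of miR-138-5p (log2 difference -0.50), a 1.41-fold difference in ratio. The ratio of miR-138-2-3p was lower than that of miR-138-5p by 1.56 or more (log2 difference of at most -1.56, at least 2.95-fold). It was lower than that of miR-138-1-3p by 1.06 or more (at most -1.06, at least 2.08-fold). In order of ratio, miR-138-5p came highest, miR-138-1-3p next and miR-138-2-3p lowest. The step between the first 2 is slightly over the SD of a single miRNA's ratio at like intensity (0.45 and 0.41). A difference of 2 ratios varies more than 1 ratio does, so these SDs do not set the step apart from the spread between probes. The step is a description and was not tested.

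The 3p arms, whose sequences match at 18 of 22 positions, were both above the floor with vehicle, and miR-138-1-3p alone of them was above it with sulforaphane. Apart from the arms themselves, the closest to either among the 996 probes with a matched sequence was miR-187-5p. It had 16 matching bases to miR-138-1-3p and 13 to miR-138-2-3p in the best ungapped alignment. It was under the floor on both arrays (2.23 with sulforaphane and 2.01 with vehicle). Among the same probes, the closest to miR-138-5p was miR-3170, with 15 of 23 bases, also under both floors (0.371 with sulforaphane and 0.274 with vehicle).

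Arms of one hairpin also differed in other miRNAs. The array held 288 pairs of a 5p and a 3p arm, of which 12 had both arms above both floors, the pair of miR-138-5p and miR-138-1-3p among them. In the other 11 the median absolute difference between the arms' log2 ratios was 0.39, and 3 pairs differed by more than the miR-138 pair. These were miR-183 (3p minus 5p, 1.17), miR-22 (1.07) and miR-335 (0.90). The arms of these 3 pairs had ratios of opposite sign on the authors' scale, as did those of miR-138, but there the 5p arm was the lower, while in miR-138 it was the 3p arm. At the low end of the differences, miR-138 (-0.4988) and miR-30e (-0.4985) were nearly equal. The split of miR-138-5p above both floors and miR-138-2-3p above the vehicle floor alone occurred in 1 further pair, that of miR-299, whose miR-299-3p read 1.60 with sulforaphane and 7.10 with vehicle.

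**Figure D3:**
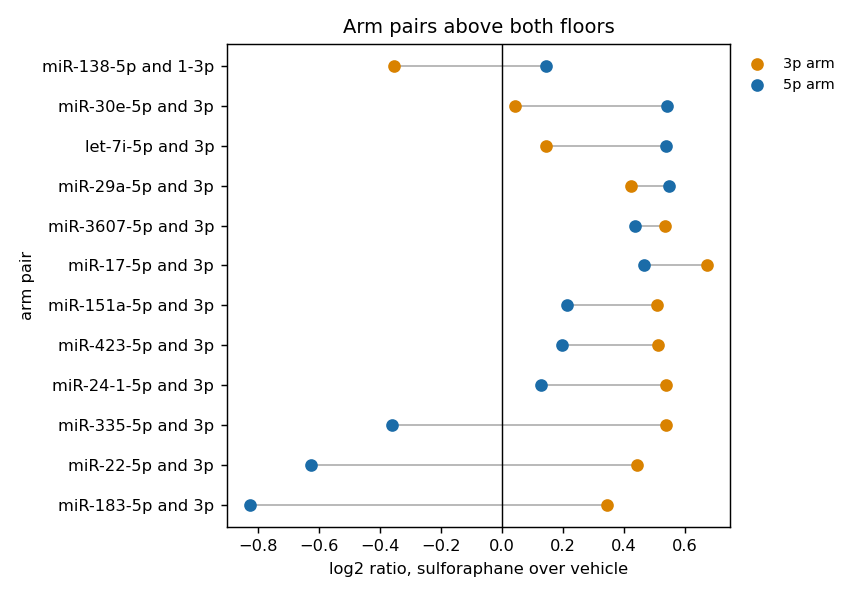
Log2 ratio of sulforaphane over vehicle for the 5p and the 3p arm of the 12 arm pairs above both floors, ordered by the 3p minus 5p difference. The pair of miR-138-5p (0.14) and miR-138-1-3p (-0.36) stands at the top, and the pair miR-183-5p and miR-183-3p, which differ by 1.17 in the opposite direction, at the bottom.

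A more exact comparison is with miRNAs built like miR-138, with 1 arm shared between loci and at least 2 locus-numbered opposite arms on the array. There were 12 others, with 24 locus-numbered arms: let-7f, miR-125b, miR-129, miR-19b, miR-218, miR-219, miR-24, miR-26a, miR-29b, miR-30c, miR-7 and miR-92a. Their shared arms were above both floors in 7 of the 12, beside 13.2% of all human miRNA probes. Of their 24 locus-numbered arms, 1 was above both floors, 1 was above the vehicle floor alone and 22 were under both floors. The 22 compare with 82.2% under both floors among all human miRNA probes. Both locus-numbered arms were above the vehicle floor in 0 of the 12. Detection at the vehicle floor is part of what drew attention to miR-138-2-3p, so these counts are a description and set nothing apart in miR-138.

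The locus-numbered arm above both floors was miR-24-1-5p (42.7 with sulforaphane and 39.1 with vehicle, log2 ratio 0.13), whose shared arm miR-24-3p, an inhibitor of cell-cycle genes, read 97.6 with sulforaphane and 67.3 with vehicle (log2 ratio 0.54). The ratio of miR-24-1-5p was therefore 0.41 below that of its shared arm (-0.41), against -0.50 for miR-138-1-3p. The arm above the vehicle floor alone was miR-129-1-3p (5.42 with sulforaphane and 9.39 with vehicle), just under the sulforaphane floor. Its shared arm miR-129-5p was under both floors (0.750 with sulforaphane and 0.794 with vehicle), so for miR-129 no comparison of arms could be made.

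The human miRNAs nearest to each arm were taken as the 3 with the smallest distance in log2 normalized intensity over the 2 arrays, which is a likeness of brightness on these arrays and of nothing else. For miR-138-5p they were miR-890 (distance 0.10), miR-4290 (0.10) and miR-25-3p, a member of a MYC-activated cluster (0.20). For miR-138-1-3p they were miR-498 (0.17), miR-1265 (0.23) and miR-668 (0.25), with log2 ratios of -0.50, -0.13 and -0.02. For miR-138-2-3p they were miR-377-3p (0.34), miR-4321 (0.83) and miR-559 (0.92), all 3 detected with vehicle alone. The last 2 lie farther from miR-138-2-3p than miR-377-3p. These 3 distances use sulforaphane values under the floor, and miR-138 was chosen by its intensities, so they do not show how rare such a probe is.

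Other miRNAs known to share a target with miR-138-5p were read against the whole profile, in which 8 of 168 (4.76%) differed by 2-fold or more on the authors' scale, so a count of 0 in a short list says nothing particular about it. Of 9 miRNAs known as repressors of EZH2 in other settings, 5 were above both floors, beside 13.2% of all human miRNA probes. These 5 had a median log2 ratio of 0.39, against 0.38 for all 168, and 0 reached 2-fold in either direction. All of the 5 but miR-101-3p belong to the let-7 and miR-98 family, so they are not separate readings. The brightest were let-7b-5p (48.9 with sulforaphane and 36.2 with vehicle), miR-101-3p (34.0 with sulforaphane and 25.2 with vehicle) and let-7e-5p (27.5 with sulforaphane and 20.9 with vehicle). Of 9 miRNAs linked to HIF1A or hypoxia, 5 were above both floors, beside the same 13.2%. These 5 had a median of 0.57, and 0 reached 2-fold. They included miR-20a-5p (107 with sulforaphane and 66.0 with vehicle), miR-17-5p (43.5 with sulforaphane and 31.5 with vehicle) and miR-20b-5p (20.0 with sulforaphane and 13.4 with vehicle), which belong to related clusters with shared seeds. The hypoxia-induced miR-210 read 14.5 with sulforaphane and 11.1 with vehicle (0.38). The targets themselves are mRNAs and were not measured.

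Of 14 brain-enriched miRNAs, the class to which miR-138-5p belongs, 1 was above both floors, 3 were above the sulforaphane floor alone and 10 were under both, beside 13.2%, 3.46% and 82.2% of all human miRNA probes. The first was miR-7-5p (49.7 with sulforaphane and 27.0 with vehicle, log2 ratio 0.88), and the next by brightness were miR-9-3p (7.91 with sulforaphane and 6.16 with vehicle) and miR-9-5p (6.46 with sulforaphane and 5.78 with vehicle). Of the 7 neuronal markers, 3 were above the sulforaphane floor alone and 4 were under both floors. The 3 were miR-9-3p, miR-9-5p and miR-128 (5.52 with sulforaphane and 3.91 with vehicle). Those under both included miR-124-3p (2.12 with sulforaphane and 4.52 with vehicle) and miR-137 (0.105 with sulforaphane and 0.108 with vehicle). The summed intensity of the 7 neuronal markers was 23.6 with sulforaphane and 22.0 with vehicle.

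Markers of the carcinoma and of other cells were mixed, and with 82.2% of all human miRNA probes under both floors, a marker under them says little. Of the 6 carcinoma markers, 2 were above both floors and 4 were under both. miR-21-5p, abundant in many carcinomas, read 122 with sulforaphane and 93.5 with vehicle, while miR-200c-3p, an epithelial miRNA, was under both floors (3.96 with sulforaphane and 3.97 with vehicle), as were miR-200b-3p, miR-141-3p and miR-205-5p. Of 8 blood and immune miRNAs, 0 were above either floor, and their summed intensity was 6.58 with sulforaphane and 5.88 with vehicle. Among the 4 muscle miRNAs, miR-206 was above the vehicle floor alone (1.80 with sulforaphane and 6.61 with vehicle), as miR-138-2-3p was, and miR-1, miR-133a and miR-133b were under both. The part of muscle RNA in the result for miR-138-2-3p was not tested, and those 3 muscle miRNAs read at most 1.20 with sulforaphane and 0.731 with vehicle. The liver miRNA miR-122-5p was under both floors (1.14 with sulforaphane and 1.74 with vehicle).

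The direction of miR-138-5p depended on the scale, and that of the 3p arms did not under the scalings tried. Under 7 other scalings the log2 ratio of miR-138-5p ranged from -0.53 to 0.30 and was below 0 under 6 of them, so it has no settled direction. The ratio of miR-138-1-3p ranged from -1.03 to -0.20 and was below 0 under all 7, and it passed 2-fold with scaling to the spike-in probes alone. The bound of miR-138-2-3p ranged from -2.09 to -1.26 and stayed past 2-fold under all 7. A scaling by 1 factor per array cannot change the differences between arms. The order of the arms could therefore move only under quantile normalization and cyclic loess. It was kept under both, with a difference between miR-138-1-3p and miR-138-5p of -0.54 by quantile normalization and -0.55 by cyclic loess.

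**Figure D4:**
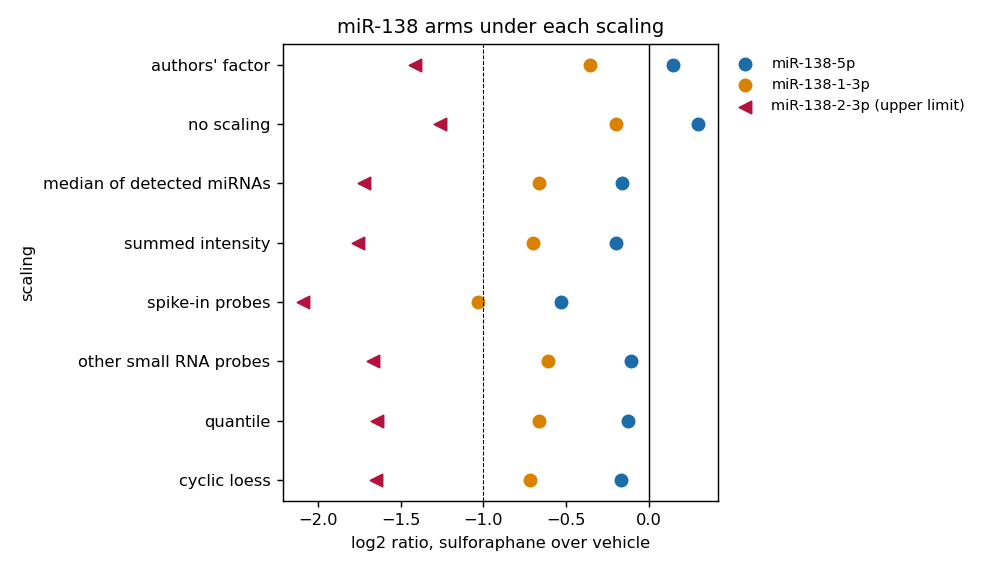
Log2 ratio of sulforaphane over vehicle for the 3 miR-138 arms on the authors' scale and under 7 other scalings, with the ratio of miR-138-2-3p drawn as an upper limit. The points of miR-138-5p fall on both sides of 0 (-0.53 to 0.30), while those of miR-138-1-3p (-1.03 to -0.20) and miR-138-2-3p (-2.09 to -1.26) stay below it.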

How the data were processed

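The deposited workbook holds 3 measures of each probe on the sulforaphane and the vehicle array, per the file headers: foreground intensity, the same after background subtraction, and a normalized value. The last was deposited as a ratio, the subtracted intensity divided by 124 (sulforaphane) or 111.5 (vehicle) for all 2661 probes with values. The authors' fold change is the ratio of these values, and the series value table matched them to within 4.9e-08. The labels and headers used here do not state the scanner, the background method or how the factors were set.

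The log2 ratio was sulforaphane over vehicle, with nothing added. Viral probes set the floor (their 95th percentile on each array), and a value under it was replaced by the floor to give a bound. A 2-fold size rule stood in for a test, since 1 array per group allows none. The number of arrays limits the precision. The members, lists and rules were chosen with earlier results of these data known: members by name, the 3 nearest miRNAs by distance, all miRNAs with shared and locus-numbered arms, miRNAs of the same seed, and lists for EZH2, hypoxia, brain and cell type markers. A few further miRNAs (miR-187-5p, miR-3170, the arm pairs, those at the floor and the bounds) were named after their values were seen. Windows of 1 log2 unit were chosen after seeing the data. Alternatives were other scalings, floors, size rules, unsubtracted foreground and an added floor. Only the scaling by a single factor, quantile normalization and cyclic loess were tested on simulated data. The floor, the bounds and the arm comparisons were not. Python 3.11.15, numpy 2.4.6, pandas 2.3.3, R 4.3.3 and limma 3.58.1 were used.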

Additional observations from a re-analysis of the deposited data

How the results depend on the processing

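With 1 array per group no replicate could be left out, and no paired analysis was possible because there was a single sample in each group. A value was taken as shifted where it moved by more than 0.20, the SD of the spike-in log2 ratios, and a count where it changed by over 1.5 times. The log2 ratios of miR-138-5p, miR-138-1-3p and miR-138-2-3p (a bound) were -0.16, -0.66 and -1.72 after scaling to the median of detected miRNAs, -0.20, -0.70 and -1.76 by summed intensity, -0.53, -1.03 and -2.09 by spike-in probes, -0.11, -0.61 and -1.67 by other small RNAs, -0.13, -0.66 and -1.64 by quantile normalization, and -0.17, -0.72 and -1.65 by cyclic loess. For the 168 miRNAs above both floors, the median log2 ratio was 0.54 without scaling. It was 0.07, 0.04, -0.29, 0.13 and 0.03 in the same order up to quantile normalization, and near 0 with cyclic loess. A scaling by 1 factor per array moves all probes alike by arithmetic, and quantile normalization and cyclic loess align the arrays. These medians therefore follow from the scalings and cannot show whether a shift is common to all miRNAs. Without scaling or with unsubtracted foreground, the 3 ratios and their differences moved by less than 0.20. With the floor added to each value, the same held for miR-138-5p, miR-138-1-3p and their difference. For miR-138-2-3p the floor-added value of -1.38 is a ratio and not a bound. It and its differences are therefore not comparable with the bound of -1.41 and the differences drawn from it. The ratio of its deposited values, under the floor with sulforaphane, was -2.51. The differences between arms cannot shift under a scaling by 1 factor per array, and none shifted under quantile normalization or cyclic loess. That of miR-138-2-3p from miR-138-1-3p, a bound, was at most -0.98 by quantile normalization and at most -0.93 by cyclic loess. Under these 2 scalings the bound alone does not establish 2-fold, and the difference may be larger.

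The floor decided whether a fold could be given. At the 90th percentile of viral probes the bound of miR-138-2-3p was -2.07. Its difference was at most -2.21 from miR-138-5p and at most -1.71 from miR-138-1-3p. At the 99th percentile, or at the 95th percentile of unnamed probes, 0 arms were above the floor on the sulforaphane array and 0 on the vehicle array, so no fold could be given. The share of all human miRNA probes above these 2 floors is not given here. The other floors for the folds were added after seeing the data. At each of these 2 floors 1 human miRNA was at least 2-fold higher and 0 were lower.

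Counts of human miRNAs at least 2-fold higher and lower, 6 and 2 on the authors' scale, were 8 and 1 without scaling, 2 and 4 by the median, 1 and 4 by summed intensity, 0 and 9 by spike-in probes, 3 and 4 by other small RNAs, 1 and 4 by quantile normalization and 1 and 4 by cyclic loess. They were 27 and 5 at 1.5-fold and 0 and 0 at 3-fold. Signals under 684 background-subtracted units with sulforaphane or 718 with vehicle are not separated from the viral probes by this floor, which limits what can be said of miR-138-2-3p.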
